A study of Mus musculus with 4 samples.

Results

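The B cell identity and receptor signalling genes are 36 genes that encode chains of the B cell receptor complex, other surface proteins of B cells, the enzymes and adaptors behind the receptor, and transcription factors of the lineage. They were chosen by gene name from the 23366 gene symbols of a count table, and all 36 were found in it. RNA was sequenced from medullary thymic epithelial cells (mTECs) of wild-type C57BL/6 mice, aged 6 to 8 weeks, with no treatment named, in 2 female pools and 2 male pools. Each pool held cells of 10 mice, sorted as alive (PI-), negative for the leukocyte protein CD45, positive for MHC class II and low for Ly51. A pool is therefore the unit of replication, the spread between pools stands for that between groups of 10 mice, and what the pool numbers 1 and 2 in each sex stand for is not given in the sources used here. The study asked whether mTEC transcripts differ between the sexes.

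The B cell receptor is a membrane immunoglobulin that cannot signal by itself and depends on the paired chains Cd79a and Cd79b. When the receptor binds antigen, the Src family kinases Lyn and Blk phosphorylate these chains, Syk is recruited, and the adaptor Blnk brings Btk to Plcg2, while coreceptors lower the threshold of the response and inhibitory receptors raise it. B cells are residents of the thymic medulla, where they can present antigen to developing T cells, and they carry CD45 and MHC class II.

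Reads counted on genes ranged from 1976272 to 7103627 per pool, with the fewest in female pool 2 and the most in male pool 1. Levels of 1 gene across pools are given as normalized CPM (read counts per library of fixed size), scaled for library composition by the TMM method, and levels of different genes are set against each other only as RPKM, the same value per kilobase of exon. A count of 0 allows up to 3 counts, or 0.358 to 1.48 normalized CPM depending on the pool. Such limits and intervals cover counting error only. Ptprc, which encodes CD45, had 280.0 and 180 normalized CPM in female pools 1 and 2 and 304 and 219 in male pools 1 and 2, although the cells were sorted as CD45 negative. Aire, the regulator that marks mature mTECs, had between 19.3 and 31.7, and the epithelial surface gene Epcam between 37.0 and 51.6. The 36 genes together took 1.0% and 0.718% of the reads on genes in female pools 1 and 2, and 0.962% and 0.481% in male pools 1 and 2. In bulk samples like these, fewer cells of a type and less RNA per cell cannot be told apart.

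Cd79a, the signalling chain also called Igα, was the highest of the 36 genes per kilobase, with a mean of 1251 RPKM over the 4 pools and 62 of the 10309 tested genes with a known length above it. It lies on chromosome 7 of NCBIM37 (the assembly also called mm9) from 25682400 to 25687216 on the plus strand. Its normalized CPM were 2434 and 1542 in the first and the second pool of females, and 1861 and 1456 in those of males. The pools numbered 1 were above the pools numbered 2, and the sexes overlapped. The bases just before this gene are shown because its level sets the scale for the others. They are chr7:25682266-25682399 on the plus strand, from 250 to 117 bases before the start in RefSeq and ending at the base before the annotated gene:
Cd79a upstream: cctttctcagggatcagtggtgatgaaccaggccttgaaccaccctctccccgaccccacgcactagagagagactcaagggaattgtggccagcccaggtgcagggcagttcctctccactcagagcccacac

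Cd79b, the partner chain Igβ (chromosome 11, 106172655 to 106176076, minus strand), had 644, 521, 594 and 430.5 normalized CPM in female pool 1, female pool 2, male pool 1 and male pool 2, the order used for all lists of pool values from here on. Per kilobase it had a mean of 382 RPKM, below Cd79a in every pool. The reads of Cd79b relative to those of Cd79a in the same pool do not depend on library scaling. They were 26.4% (95% counting interval 25.3 to 27.7), 33.8% (31.5 to 36.2), 31.9% (30.9 to 32.9) and 29.6% (27.6 to 31.6). The interval of female pool 1 lay below those of female pool 2 and male pool 1 and overlapped that of male pool 2.

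The surrogate light chain genes of the pre-B cell receptor, the form made by B cell progenitors, were near the counting limit. Vpreb1 had 0, 0, 12 and 1 counts, and Igll1 (λ5) had 5, 1, 10 and 3 counts. Both were too low for the test, and the 12 counts of Vpreb1 in male pool 1 have a 95% Poisson interval from 6.2 to 21.0. Vpreb1 is nearly identical in sequence to Vpreb2, and reads with several alignments were not counted on genes. Vpreb3, which binds immunoglobulin chains in the endoplasmic reticulum and is also made by mature B cells, was higher per kilobase (11.8 RPKM, against 0.409 for Vpreb1 and 0.486 for Igll1), with 8.43, 6.43, 6.57 and 19.3 normalized CPM. Male pool 2 was above the other 3 pools for this gene.

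Coreceptors and inhibitory receptors of the B cell surface were detected in every pool. Cd72, an inhibitory C-type lectin, was the highest of the 7 per kilobase (76.3 RPKM), at 315, 254, 268 and 207 normalized CPM. Cr2, a complement receptor, was the lowest (2.05 RPKM), at 16.0, 11.4, 18.0 and 14.6 normalized CPM. For the inhibitory lectin Cd22 the values were 110.4, 74.2, 102.3 and 49.7 normalized CPM. The related lectin Siglecg had between 77.0 and 170.4, the low-affinity IgE receptor Fcer2a (CD23) between 68.2 and 109.6, and the intracellular Fc receptor-like protein Fcrla between 93.6 and 155. Fcgr2b, the inhibitory IgG receptor that B cells share with myeloid cells, was the most even of these, at 99.96 to 118.5. Female pool 1 or male pool 1 was the highest pool for each of the 7 genes.

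Among the other surface proteins, Cd83, which is found on activated B cells and dendritic cells and in thymic epithelium, had 1271, 1276, 1380 and 1121 normalized CPM. It was second to Cd79a per kilobase, with 564 RPKM. Cd180, a Toll-like receptor homologue, had 12.2, 10.4, 9.92 and 18.1 normalized CPM. Ly86 (MD-1), the secreted partner of Cd180 at the cell surface, had 429, 331, 315 and 492. Both were highest in male pool 2. Per kilobase the partners were far apart, with 393 RPKM for Ly86 and 2.81 for Cd180. The pan-B cell protein Ms4a1 (CD20; chromosome 19, 11324654 to 11340669, minus strand) had 477, 234, 391 and 178 normalized CPM. The tetraspanin Cd37 ranged from 349 to 770.4 and the ectoenzyme Cd38 from 35.4 to 71.5, and both, like Ms4a1, had their highest value in female pool 1 and their lowest in male pool 2.

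Receptors for homing to follicles and for survival were also detected in every pool. Cxcr5, the receptor for the follicle chemokine Cxcl13, had 146, 103, 156 and 67.4 normalized CPM. Tnfrsf13c, the receptor for the survival factor BAFF, had 96.2, 64.3, 87.6 and 41.6. Tnfrsf13b (TACI), which binds BAFF and APRIL, was the lowest of these receptors per kilobase (6.44 RPKM, against 45.2 for Cxcr5 and 35.5 for Tnfrsf13c), at 22.0, 19.3, 17.1 and 14.6 normalized CPM. The pools numbered 1 were above the pools numbered 2 for Cxcr5 and Tnfrsf13c, and both female pools were above both male pools for Tnfrsf13b.

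The receptor proximal kinases and adaptors were all detected. Lyn, a Src family kinase of B and myeloid cells, was the highest of the 9 signalling genes per kilobase (91.2 RPKM), at 560, 291, 405 and 229 normalized CPM. Blk, the B lineage kinase of the same family (chromosome 14, 63991674 to 64036024, minus strand), had 170.4, 90.1, 139 and 66.2. Syk had 149, 121, 134 and 123, the Tec family kinase Btk between 48.1 and 69.4, and the adaptor Blnk between 162 and 278. Plcg2, the phospholipase that these converge on, had 223, 236, 180 and 337 normalized CPM, with its highest value in male pool 2. Bank1, a scaffold that links Lyn to calcium release, had 143, 76.7, 144 and 53.1, nearly equal in the pools numbered 1 and lower in those numbered 2. Swap70, a guanine nucleotide exchange factor, ranged from 174 to 267. Ralgps2, an exchange factor for Ral, was the lowest of the group per kilobase (2.96 RPKM), at 22.8, 12.4, 30.9 and 16.9 normalized CPM.

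The transcription factors of the lineage were all below Cd79a and Cd79b per kilobase. Pou2af1 (OBF-1), the coactivator of octamer-binding factors, was the highest of them, with a mean of 48.9 RPKM and 180, 114, 137 and 71.2 normalized CPM. Pax5, the factor that holds B cell identity, was the lowest, with 14, 1, 20 and 6 counts and a mean of 0.657 RPKM, under that of 9895 of the tested genes with a length. It was below the filter of the test. The exact Poisson intervals of these counts were 7.65 to 23.5, 0.0253 to 5.57, 12.2 to 30.9 and 2.2 to 13.1. Pax5 reads were 0.156%, 0.0321%, 0.128% and 0.159% of those of Cd79a. Ebf1, the early B cell factor, had 23.1, 14.4, 14.7 and 8.09 normalized CPM. The octamer factor Pou2f2 (Oct-2) had 23.6, 20.8, 14.5 and 19.3. Bcl11a, a zinc finger factor of early B cells and plasmacytoid dendritic cells, had 42.1, 35.6, 28.7 and 23.1. Bach2, the repressor that holds back plasma cell fate, had 22.3, 10.4, 25.9 and 17.7.

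Per kilobase, then, the order was led by Cd79a (999 to 1670 RPKM over pools) and Cd83 (501 to 616), whose ranges did not overlap each other or those of the genes after them. Ly86 (316 to 493) and Cd79b (301 to 450) overlapped and cannot be ordered. The ranges of Cd37 (98.7 to 218), Ms4a1 (70.6 to 189) and Lyn (56.3 to 137) overlapped as well. Within every pool, however, Cd37 was above Ms4a1 and Ms4a1 above Lyn. The last places were taken by Ebf1, Pax5, Igll1 and Vpreb1, at means of 1.54, 0.657, 0.486 and 0.409 RPKM.

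**Figure D1:**
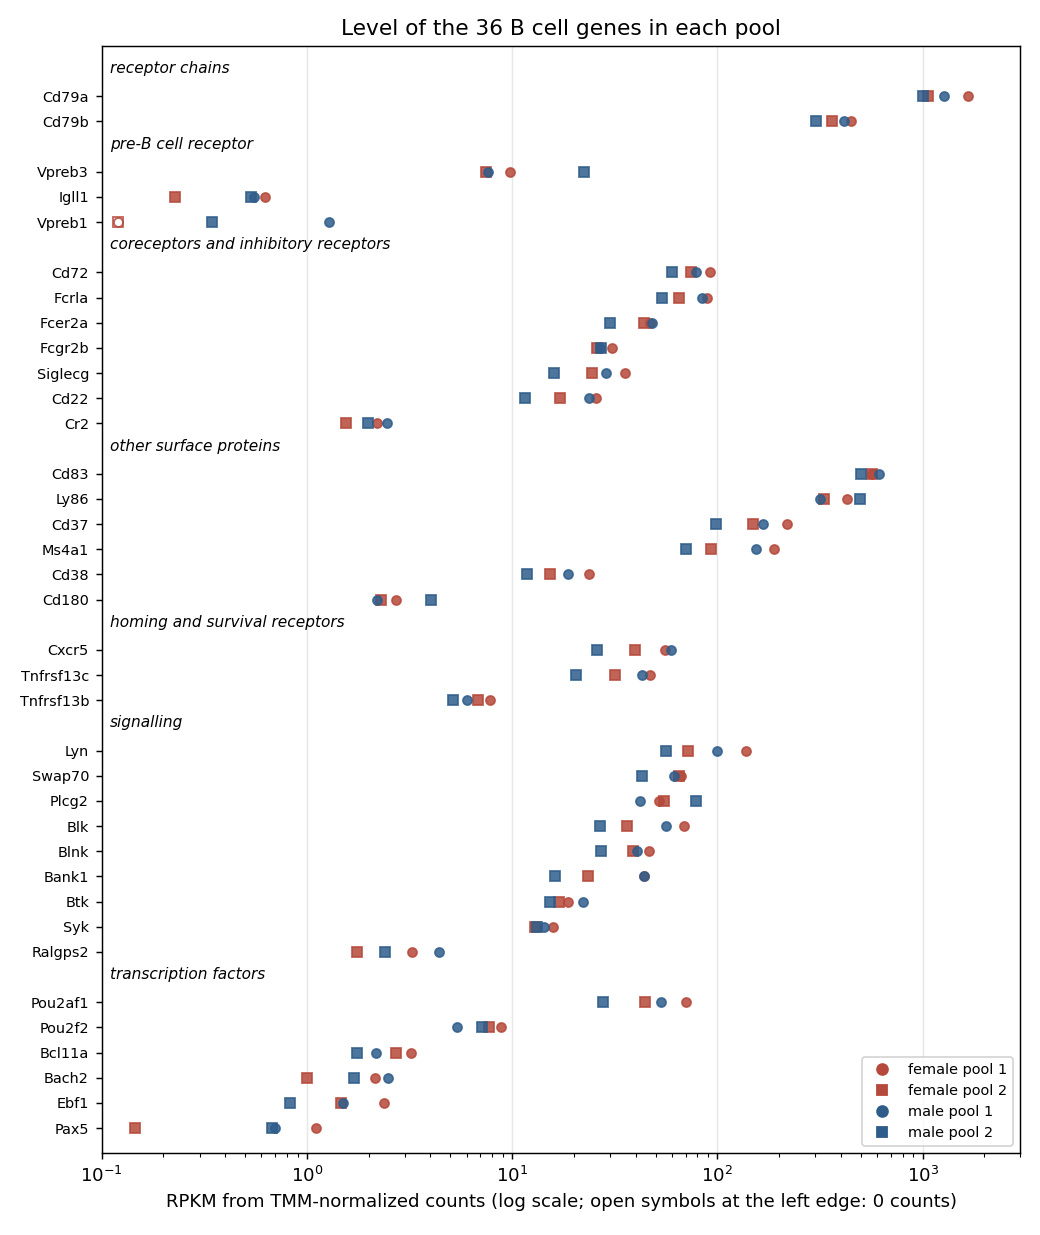
Level of each of the 36 genes in each pool, as RPKM on a log scale, with genes grouped by role and ordered by mean within a role. Circles are pools numbered 1, squares are pools numbered 2, red is female and blue is male, and open symbols at the left edge are counts of 0. Cd79a spans 999 to 1670 RPKM, whereas Pax5 has a mean of 0.657, and squares lie to the left of circles for 23 of the 33 tested genes.

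Short promoter letters were read from the RefSeq promoter table (GRCm38.p6), which held 30 of the 36 genes, and were placed on NCBIM37 by exact match. Blk, Cd79b, Cd83, Cxcr5, Lyn and Ms4a1 had no entry. In the 250 bases before the start, on both strands, 2 of 30 genes held the octamer ATGCAAAT, bound by the partners of Pou2af1, against 1.6% of 32851 promoters. The palindrome of TCCC and GGGA with any 2 bases (NN) between, a form of the Ebf1 motif, was in 1 of 30 against 0.779%, and the PU box GAGGAAGT, of the Ets factors of B and myeloid cells, in 2 of 30 against 2.44%. A gene counted if any of its promoter windows matched (37 windows for the 30 genes), whereas the percentages are of single promoters, so the units differ. No match overlaps another. The matches are shown with 30 bases around each, on the strand of the gene, and capitals mark the motif or its reverse complement. Those of Vpreb3 and Cd22 lie in an annotated intron, that of Cd72 upstream of the gene, and those of Blnk and Cd37 overlap an annotated exon:
Vpreb3, octamer, chr10:75410989-75411018, plus strand: tcagtgggctgATTTGCATgctctattgtg
Blnk, octamer, chr19:41068823-41068852, minus strand: tactggaagggATTTGCATgcccaataagg
Cd22, palindrome, chr7:31664077-31664106, minus strand: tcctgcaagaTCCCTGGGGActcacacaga
Cd72, PU box, chr4:43467529-43467558, minus strand: gccaaagacctACTTCCTCttttatgactt
Cd37, PU box, chr7:52494216-52494245, minus strand: acccccccggaACTTCCTCtttctctgccg

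Males and females were compared first, since sex was the question of the study. None of the B cell genes passed the test between the sexes. Of the 36 genes, 33 passed the filter on low counts, and by the quasi-likelihood test of edgeR 0 of these 33 had an adjusted p under 0.05, as did 0 of all 10865 genes tested (0.0%). At an unadjusted p under 0.05 by edgeR there were 0 B cell genes as well, against 48 of all genes (0.442%, with 0.12% lower and 0.322% higher in males). The log2 fold change of male over female was below 0 for 25 of the 33 genes, against 46.8% of all tested genes, and its median was -0.26, against 0.027 over all tested genes. With 2 pools against 2, an exact two-sided permutation test of a single gene cannot go below a p of 0.333. The study listed genes higher in males at a false discovery rate under 0.05, some of them on the Y chromosome. Since the fit used here called no gene at all, its 0 calls cannot tell whether B cell genes differ between the sexes.

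The smallest unadjusted p by edgeR was 0.107, for Bcl11a, whose values given above were higher in both female pools (38.9 ± 4.60 normalized CPM, SD, n = 2 pools) than in both male pools (25.9 ± 3.94). Its log2 fold change was -0.58 with a standard error of 0.31. The next were Ebf1 at -0.70 (standard error 0.45), Vpreb3 at 0.73 (0.60), Pou2f2 at -0.42 (0.34) and Tnfrsf13b at -0.38 (0.33), each with an adjusted p of 1 by edgeR. The values of Ebf1 and Vpreb3 overlapped between the sexes. Both male pools were below both female pools for 4 genes, Bcl11a, Pou2f2, Tnfrsf13b and Swap70, which is 12.1% of the 33 and near the 11.7% of all tested genes. No B cell gene was higher in both male pools than in both female pools, against 9.47% of all tested genes.

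The mean of Cd79a was 1988 ± 631 normalized CPM in the female and 1659 ± 287 in the male pools (SD, n = 2 pools per sex). Its log2 fold change of male over female was -0.26, with a standard error of 0.49. For Cd79b it was -0.18 (0.42), for Ms4a1 -0.32 (0.56) and for Syk -0.07 (0.34). By role, the median log2 fold change was -0.22 for the receptor chains and for the coreceptors and inhibitory receptors, -0.17 for the other surface proteins, -0.31 for the homing and survival receptors, -0.15 for signalling and -0.50 for the transcription factors, while Vpreb3, the 1 pre-B cell receptor gene tested, was at 0.73. The direction rested on single pools. The median over the tested B cell genes was 0.06 without female pool 1 and -0.06 without male pool 2, but -0.42 without female pool 2 and -0.53 without male pool 1. Without male pool 1, 10 B cell genes (29.4% of those tested) had an unadjusted p under 0.05 by edgeR, against 16.3% of all genes tested in that fit, and 0 passed the adjusted threshold, against 646 of 11292 of all genes (5.72%). With a pool left out, 22 of the 33 genes changed direction in at least 1 fit.

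**Figure D2:**
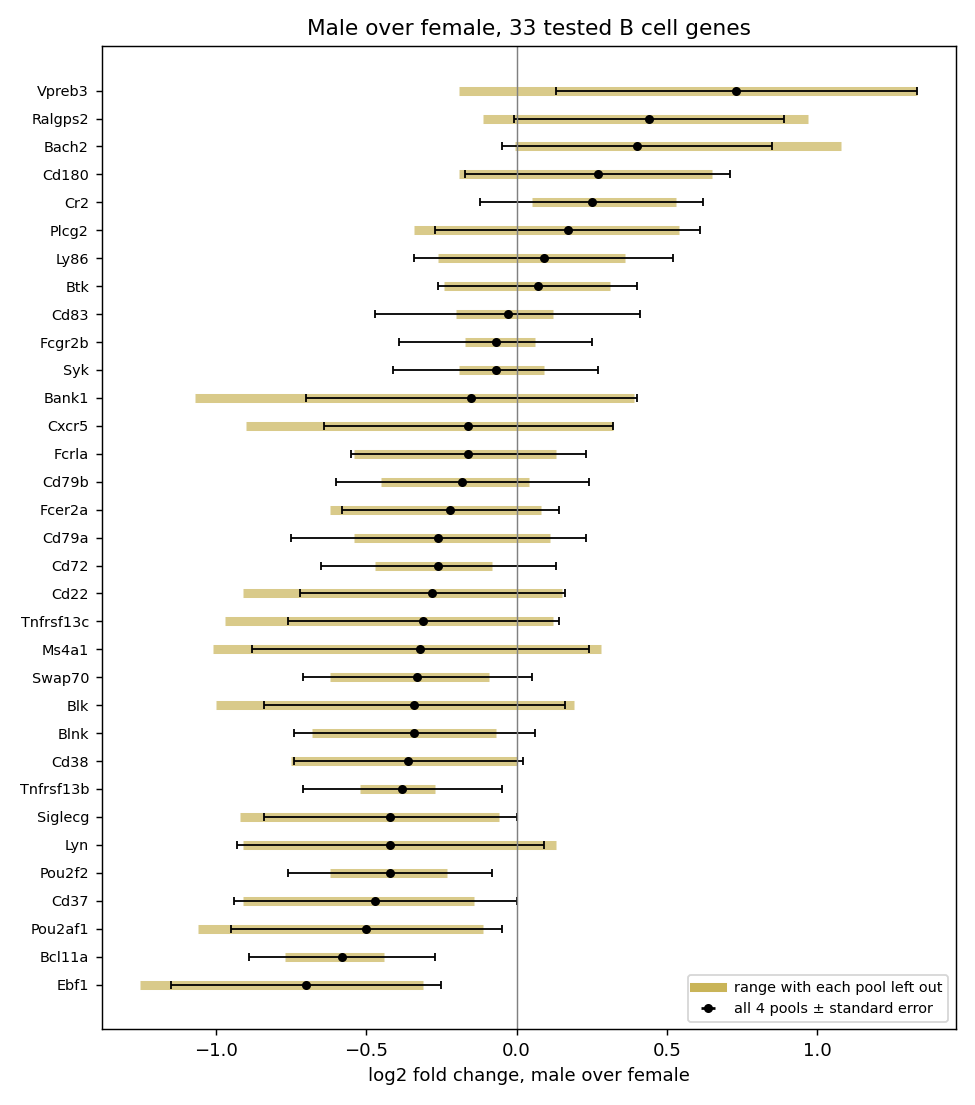
Log2 fold change of male over female for the 33 tested genes, ordered by size. Black points with bars are the fit of all 4 pools with its standard error, and the yellow band is the range over fits that each leave out 1 pool. Points run from -0.70 for Ebf1 to 0.73 for Vpreb3, and the band crosses 0 for 22 genes.

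The pools numbered 2 were then compared with those numbered 1, a split chosen with earlier results of these data known. B cell genes were mostly lower in pool 2. In both sexes, 26 of the 33 genes (78.8%) were lower in pool 2 than in pool 1, against 35.0% of all tested genes, and 1 was higher in both, against 31.2%. Both pools numbered 2 were below both pools numbered 1 for 23 genes (69.7%), against 29.0% of all genes, and above them for Plcg2 alone, against 26.5%. The log2 fold change of pool 2 over pool 1 was below 0 for 28 of 33, against 52.1%, and its median was -0.40, against -0.03 over all tested genes. By the quasi-likelihood test of edgeR none of the 33 passed the adjusted threshold of 0.05, while 2.03% of all genes did, 0.175% lower and 1.86% higher. At an unadjusted p under 0.05 by edgeR there were 12 B cell genes (36.4%), all lower in pool 2, against 9.22% of all genes lower, 14.4% higher and 23.7% in all.

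Bank1 had the smallest p. Its level in pool 2 was 0.537 of that in pool 1 in females and 0.369 in males, which gave 143 ± 0.893 normalized CPM in the pools numbered 1 and 64.9 ± 16.7 in those numbered 2 (SD, n = 2 pools each). The log2 fold change was -1.15 with a standard error of 0.26 (edgeR, adjusted p = 0.0579). Bank1 lies on chromosome 3 from 135716327 to 135989030 on the minus strand. The 250 bases before it, at chr3:135989031-135989280, are shown because this gene had the smallest p, and they hold none of the 3 motifs searched:
Bank1 upstream, minus strand: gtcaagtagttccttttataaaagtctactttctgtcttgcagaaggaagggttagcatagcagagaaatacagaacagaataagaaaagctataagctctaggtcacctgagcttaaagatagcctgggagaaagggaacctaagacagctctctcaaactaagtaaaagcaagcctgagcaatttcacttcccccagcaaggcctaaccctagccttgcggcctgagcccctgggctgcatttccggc

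Blk followed, at 0.528 and 0.478 of pool 1 in females and males and a log2 fold change of -0.98 (standard error 0.27, edgeR adjusted p = 0.0738). Ms4a1 was at 0.490 and 0.456, with a log2 fold change of -1.07 (0.30, edgeR adjusted p = 0.0796). Cxcr5 was at 0.709 and 0.433 (-0.82, standard error 0.27, edgeR adjusted p = 0.123), and Tnfrsf13c at 0.669 and 0.475 (-0.80, 0.27, edgeR adjusted p = 0.126). The other genes with an unadjusted p under 0.05 by edgeR were Cd22, Ralgps2, Lyn, Pou2af1, Cd38, Bach2 and Siglecg, with log2 fold changes from -0.89 for Lyn to -0.65 for Cd38. All of these 12 genes were lower in pool 2 of both sexes, and their groups did not overlap. They were picked by this same comparison, so that is no separate support. Cd79a itself was at 0.634 of pool 1 for females and 0.782 for males, and its log2 fold change was -0.52 (standard error 0.37, edgeR adjusted p = 0.434), and Cd79b at 0.809 and 0.725 (-0.38, 0.30, edgeR adjusted p = 0.483).

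A few genes did not share this direction. In pool 2, Plcg2 was at 1.05 of its pool 1 level for females and at 1.87 for males, and its log2 fold change was 0.51 (standard error 0.29, edgeR adjusted p = 0.331). Vpreb3 (0.763 in females and 2.93 in males), Cd180 (0.850 and 1.82), Ly86 (0.771 and 1.56) and Pou2f2 (0.879 and 1.33) were lower in female pool 2 and higher in male pool 2. Scaled by library size only, which lowers the median of all genes by 0.32 on the log2 scale, the fitted log2 fold changes of Ly86 (-0.19) and Pou2f2 (-0.21) were below 0, against 0.15 and 0.10 with TMM. Fcgr2b was at 0.843 in females and 1.01 in males, and Cd83 at 1.0 and 0.812. In all, 6 genes differed in opposite directions in the sexes, which is 18.2% against 33.8% of all tested genes. This counts Fcgr2b, nearly equal between the male pools, and Cd83, nearly equal between the female pools.

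By role, the median log2 fold change of pool 2 over pool 1 was -0.80 for the homing and survival receptors, -0.75 for the transcription factors, -0.45 for the receptor chains, -0.40 for signalling, and -0.39 each for the coreceptors and inhibitory receptors and for the other surface proteins. Of the pre-B cell receptor genes only Vpreb3 was tested, at 0.83. The genes were also divided, from general knowledge, into those largely limited to the B lineage and those also known in other cells. Of 15 tested genes of the first kind, 14 were below 0, all except Vpreb3, with a median of -0.66 and 8 at an unadjusted p under 0.05 by edgeR. Of 18 genes of the second kind, 14 were below 0, with a median of -0.30 and 4 at that threshold. The difference between these kinds was not tested. Across the 33 genes, the log2 ratios of pool 2 to pool 1 in females and in males had a Pearson's r of 0.54, a description over genes of the same 4 libraries, and r was 0.51 over the 10850 tested genes with a count in every pool.

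**Figure D3:**
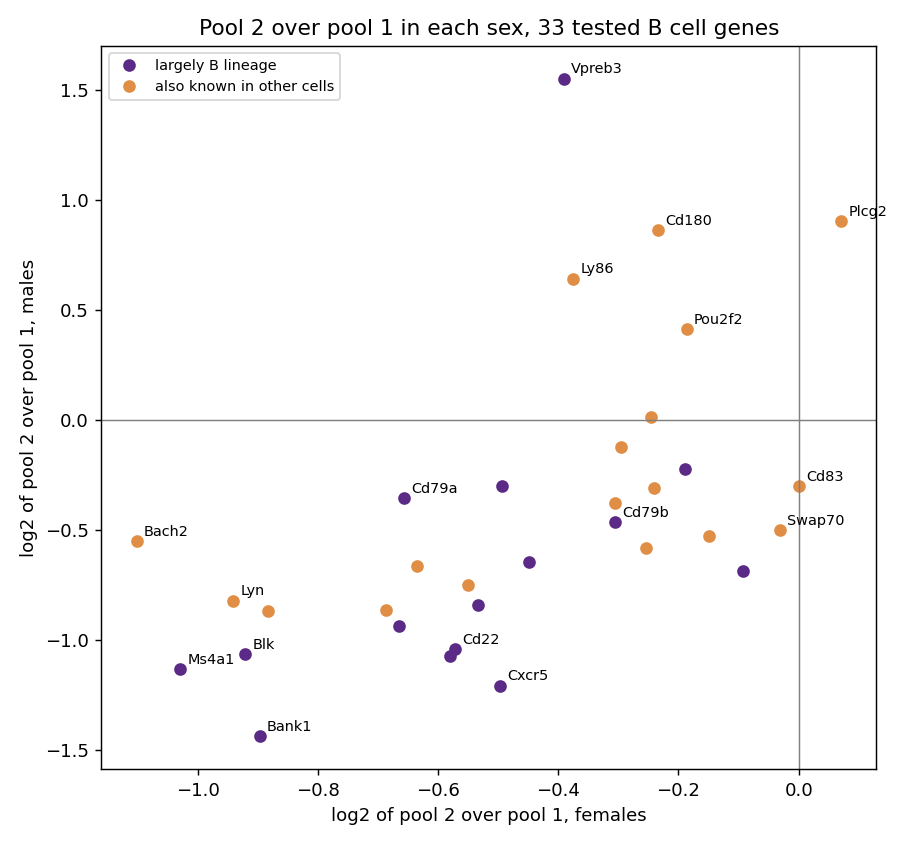
Log2 ratio of pool 2 to pool 1 in females (x axis) and in males (y axis) for the 33 tested genes, from normalized CPM. Purple points are genes largely limited to the B lineage and orange points are genes also known in other cells. There are 26 genes in the lower left, with Bank1 lowest on the male axis at a ratio of 0.369, and Plcg2 alone is above 0 on both axes.

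The number of calls depended on the fit. With DESeq2, Bank1 and Ms4a1 passed an adjusted p of 0.05, 6.06% of the B cell genes against 5.99% of all genes. With edgeR's exact test there were 3, Bank1, Blk and Ms4a1 (9.09%, against 10.5%), and with sex as a further term 2, Bank1 and Blk (6.06%, against 7.43%). Scaling by library size only gave 5 (15.2%, against 7.03%), and with no filter on low counts there were 7 of 36 (19.4%, against 8.42%). Without female pool 2, which had the fewest reads, 16 of 34 genes passed (47.1%, against 22.9%), 14 lower and 2 higher, the latter Plcg2 and Vpreb3. Without male pool 2, Bank1 alone passed (2.94%, against 2.12% of all genes). None passed without female pool 1, against 3.57% of all genes, or without male pool 1, against 1.54%.

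Ratios to Cd79a within a pool show which genes kept step with the receptor chain. Ms4a1 had 19.6%, 15.2%, 21.0% and 12.2% as many reads as Cd79a. The counting intervals of the pools numbered 2 (13.8 to 16.7 and 11.1 to 13.5) lay below those of the pools numbered 1 (18.6 to 20.6 and 20.2 to 21.8). Bank1 had 5.86%, 4.97%, 7.73% and 3.65%, and Blk 7.0%, 5.84%, 7.45% and 4.55%. Lyn had 23.0%, 18.9%, 21.8% and 15.8%. Each of these genes was lower beside Cd79a in pool 2 of both sexes, although for Bank1 the intervals of the female pools overlapped, as did those of Blk. Ly86, at 17.6%, 21.4%, 16.9% and 33.8%, and Plcg2, at 9.18%, 15.3%, 9.69% and 23.2%, were higher beside Cd79a in both pools numbered 2, and so was Cd83 at 52.2%, 82.7%, 74.1% and 77.0%, although its intervals in the male pools overlapped (72.3 to 75.9 and 73.3 to 80.8). Of the 32 tested genes other than Cd79a, 8 were lower and 11 higher relative to it in pool 2 of both sexes. The shares over all genes were not computed. Cd79a itself was at 0.634 of pool 1 in females and 0.782 in males. The medians over tested genes with a count in every pool were 0.993 and 0.958. The highest ratio of a gene over its lowest among pools ran from 1.23 for Fcrla to 3.82 for Vpreb3, with a median of 1.54.

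**Figure D4:**
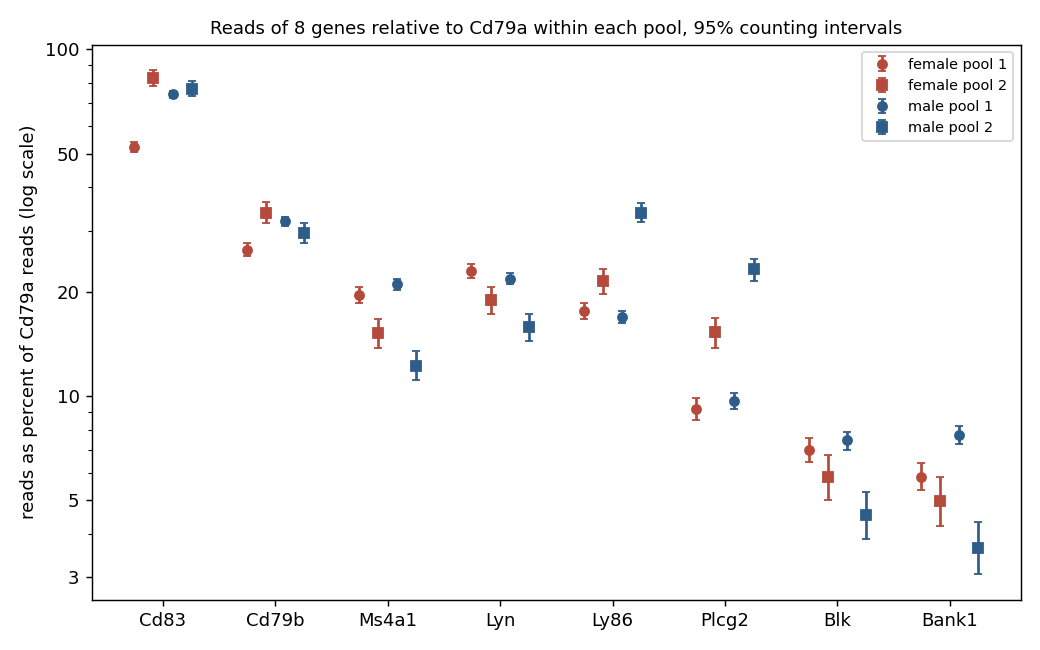
Reads of 8 genes as a percent of Cd79a reads in the same pool (log scale), with 95% counting intervals. Circles are pools numbered 1, squares are pools numbered 2, red is female and blue is male. Ms4a1, Lyn, Blk and Bank1 are lower and Ly86, Plcg2 and Cd83 higher in pool 2 of both sexes, while Cd79b, at 26.4% to 33.8%, shows neither pattern.

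Other genes of the pathway and of the cells the gate could hold were counted over whole marker lists. Each sum is compared between pools only, since sums of different lists are not scaled by gene length. The 18 other genes of receptor signalling summed to 3346, 2838, 3229 and 2178 normalized CPM. None was called in either comparison, against 2.03% of all tested genes between pool numbers and 0.0% between the sexes. At an unadjusted p under 0.05 by edgeR there were 2 between pool numbers and 0 between the sexes, against 23.7% and 0.442% of all genes. For pool 2 over pool 1, 17 of 18 were below 0, against 52.1% of all genes, with a median log2 fold change of -0.34. The 8 other B cell transcription factors tested summed to 1024, 1313, 898 and 947. Of these, 6 were below 0 for pool 2 over pool 1, against 52.1% of all genes. Irf8, a factor shared with dendritic cells, had 405, 824, 350 and 568. The 6 plasma cell genes tested summed to 1252, 736, 1627 and 1005, and the 7 lymphoid progenitor genes, of which 4 were tested, to 49.7, 17.8, 168 and 39.3. Dntt, the terminal transferase of lymphoid progenitors and thymocytes, had 31.3, 6.93, 128 and 13.1 normalized CPM, highest in male pool 1.

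Genes of other cells also differed by pool number. The 11 dendritic cell and macrophage genes summed to 2557, 4749, 1852 and 6253 normalized CPM. Of these, 8 were higher in pool 2 of both sexes, against 31.2% of all tested genes. C1qa (log2 fold change 1.97, edgeR adjusted p = 0.0391) and C1qb (1.93, edgeR adjusted p = 0.0451) rose in pool 2. They were the only calls among all of these lists, while 2.03% of all tested genes were called. Lyz2, the lysozyme of myeloid cells, had 1161, 2397, 840.5 and 3327 normalized CPM. The 9 epithelial genes summed to 376, 650, 418 and 618, with 7 higher in pool 2 of both sexes, against 31.2% of all tested genes. The mTEC genes summed to 456, 509, 391 and 469, with Ccl21a at 0 counts in every pool. Of the 7 mTEC genes tested, 5 were higher in pool 2 of both sexes, against 31.2% of all tested genes. Krt5 and Krt14 are in both the mTEC and the epithelial list, so these counts share genes. Most of each mTEC sum was Cd40, at 368, 383, 300 and 341 normalized CPM, whereas Aire had 19.3, 31.7, 19.7 and 28.9. The mTEC sums therefore mainly follow Cd40 and cannot be read as a level of mTECs. The 9 plasmacytoid dendritic cell genes summed to 3085, 2894, 2519 and 3775. Most of each sum was 1 gene, Ly6d, at 2118, 1685, 1642 and 2386. These sums therefore mainly follow Ly6d and cannot be read as a level of plasmacytoid dendritic cells. In pool 2 of both sexes 3 of the 9 were lower and 3 higher, against 35.0% and 31.2% of all tested genes. The 9 T cell genes summed to 419, 350, 1072 and 444, with 6 lower and 3 higher in pool 2 of both sexes. Their median log2 fold change of pool 2 over pool 1 was -1.16. An unadjusted p under 0.05 by edgeR was found for 4, against 23.7% of all genes. The part of these cells in the levels of the B cell genes was not tested. The 36 B cell genes summed to 9543, 7023, 8163 and 6191 normalized CPM.

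**Figure D5:**
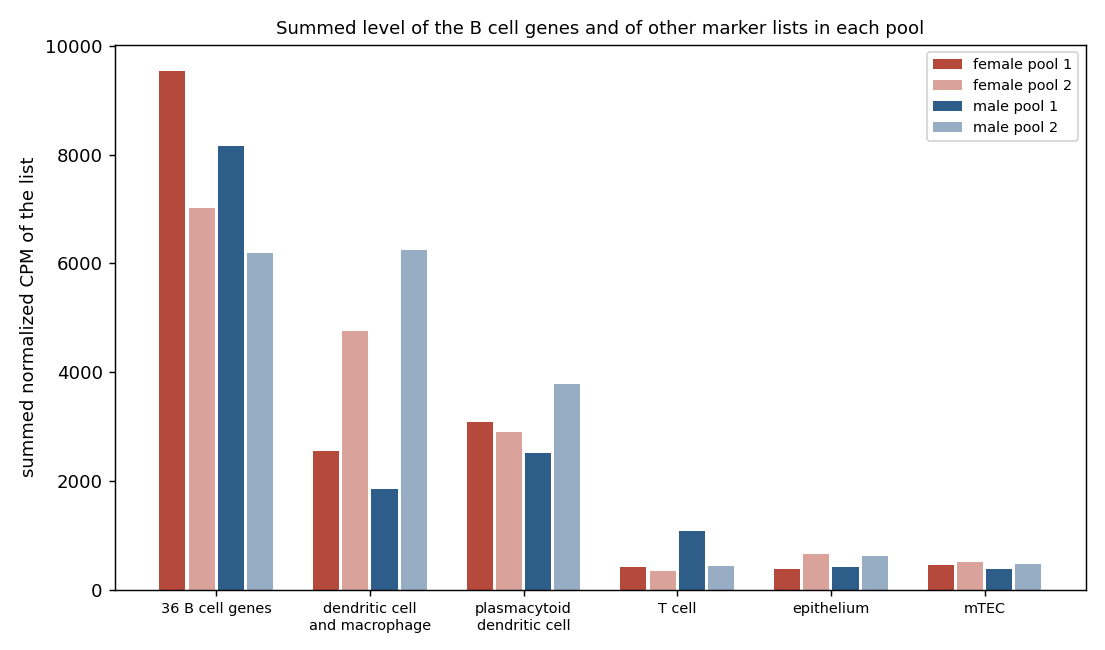
Summed normalized CPM of the 36 B cell genes and of 5 marker lists in each pool, female in red and male in blue, with pools numbered 2 in the paler shade. Heights can be compared between pools within a list only, since lists differ in the number and length of their genes. Most of each mTEC sum is Cd40, and most of each plasmacytoid dendritic cell sum is Ly6d. The B cell genes are at 9543 and 8163 in the pools numbered 1 and at 7023 and 6191 in those numbered 2, while the dendritic cell and macrophage genes are at 2557 and 1852 and at 4749 and 6253.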

How the data were processed

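RNA was measured in 4 pools of sorted mTECs. The deposited files hold read counts per gene, which the authors made from 50-base polyA cDNA reads (SMARTer Ultra Low kit) with Trimmomatic, TopHat2 on mm9 and HTSeq-count, and left them unnormalized. The strand setting, the annotation and all versions of these tools are not given in the sources used here. The 5 HTSeq summary rows, 66.9% to 70.2% of all counts in the column of a pool, were left out. This is a share of the deposited counts, not of mapped reads. Immunoglobulin genes were not analysed here.

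From these counts, edgeR 4.0.16 (R 4.3.3) gave TMM factors of 1.05, 1.03, 1.18 and 0.78 and quasi-likelihood tests over all 10865 genes kept by filterByExpr (minimum count 10), with sex or, separately, pool number as the only term, a prior count of 0.125, Benjamini-Hochberg adjustment at 0.05, two-sided. The common biological coefficient of variation was 0.349 for sex and 0.218 for pool number. Standard errors are the log2 fold change over the square root of F. The test was checked on simulated counts. RPKM used the union of exons in the NCBIM37 annotation, in which 90.9% of symbols were found, with Syk under its older symbol Sykb. Poisson and ratio intervals are exact at 95%. Alternatives were upper-quartile and library size only scaling, no filter, over 1 CPM in at least 2 pools, DESeq2 1.42.0, edgeR's exact test, pool number or sex as a further term, a prior count of 2, each pool left out in turn, and 20 random thinnings to the smallest total. Python 3.11.15, pandas 2.3.3 and matplotlib 3.10.9 made tables and figures.

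The members, their roles and the lists for other cells were chosen with earlier results of these data known. Every member is named. Values per pool are given for Cd79a, Cd79b, the highest and lowest of each role, any member past the adjusted threshold and the 5 smallest p in each comparison, and for further members chosen after their values were seen. Other lists were other receptor pathway genes, other B cell transcription factors, lymphoid progenitor, plasma cell, plasmacytoid dendritic cell, dendritic cell and macrophage, T cell, epithelium and mTEC. Of these, Spi1 was not found in the table by symbol. Jchain and 2010001M09Rik are other symbols of Igj and Mzb1, which were found and counted once. Some genes of these lists are not reported here by name. Dntt, Lyz2, Ly6d and Cd40 were named after their values were seen. The pools differed from each other beyond sampling noise (chi-square per degree of freedom from 10.1 to 89.9), so all 4 were kept as separate samples.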

Additional observations from a re-analysis of the deposited data

Results flagged for a closer look

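Pool 2 and pool 1 lay in opposite orders in the sexes for 6 tested B cell genes, with 1 pool in each cell of this comparison, so the difference between the sexes was not tested. Pool 2 over pool 1 was 2.93 in males against 0.763 in females for Vpreb3, 1.82 against 0.85 for Cd180, 1.56 against 0.771 for Ly86 and 1.33 against 0.879 for Pou2f2. It was 1.01 in males against 0.843 in females for Fcgr2b and 0.812 against 1.0 for Cd83. Fcgr2b was thus nearly equal between the male pools, and Cd83 between the female pools. These 6 genes are 18.2% of the 33 tested, against 33.8% of all tested genes.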

How the results depend on the processing

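Between the sexes, 0 B cell genes were called in every alternative, while calls over all genes reached 646 without male replicate 1, 70 without male replicate 2, 26 with no filter and 17 with the replicate block. Their median log2 fold change lay from -0.27 to -0.19 with all 4 pools and from -0.53 to 0.06 with each replicate left out. With pool number as a replicate block it was -0.25, again with 0 calls. The numbers form only 2 pairs, whose deviations correlated at 0.53. No shared animal or day is named for a number, so what its pools share is not known. Between pool numbers, the genes called went from 0 to 7 with no filter, 5 when scaled by library size only, 2 with DESeq2, 3 with edgeR's exact test and 2 with sex as a term (replicate block fit), and ran from 0 to 16 with each replicate left out. The count was 0 with upper-quartile scaling, with the filter of over 1 CPM and in all 20 thinnings. The median was -0.74 with library size only, beside -0.35 over all genes. The cause of these changes was not tested. A fit without 1 replicate leaves a lone pool, which is assumed to vary like the other group. Depth in female pool 2, with 1976272 reads on genes, limits the low genes most.

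With library size only, the sex log2 fold changes of Ly86 (-0.06) and Plcg2 (-0.0013) and the pool log2 fold changes of Ly86 (-0.19) and Pou2f2 (-0.21) changed sign. With each replicate left out in turn, 22 of 33 sex log2 fold changes changed sign in at least 1 fit. They ran from -0.54 to 0.11 for Cd79a, -0.45 to 0.04 for Cd79b, -0.19 to 1.33 for Vpreb3, -0.91 to 0.15 for Cd22, -0.17 to 0.06 for Fcgr2b, -0.62 to 0.08 for Fcer2a, -0.54 to 0.13 for Fcrla, -1.01 to 0.28 for Ms4a1, -0.75 to 0.00088 for Cd38, -0.20 to 0.12 for Cd83, -0.19 to 0.65 for Cd180, -0.26 to 0.36 for Ly86, -0.90 to 0.32 for Cxcr5, -0.97 to 0.12 for Tnfrsf13c, -0.91 to 0.13 for Lyn, -1.0 to 0.19 for Blk, -0.19 to 0.09 for Syk, -0.24 to 0.31 for Btk, -0.34 to 0.54 for Plcg2, -1.07 to 0.39 for Bank1, -0.11 to 0.97 for Ralgps2 and -0.004 to 1.08 for Bach2. For pool number, 6 did so, from -0.20 to 1.41 for Vpreb3, -0.08 to 0.76 for Cd180, -0.17 to 0.43 for Ly86, -0.53 to 0.02 for Swap70, -0.26 to 0.46 for Pou2f2 and -0.57 to 0.03 for Bcl11a. The other 11 and 27 genes kept their direction in every alternative.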
